A study of Mus musculus with 18 samples.

Results

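Translational efficiency, the change of ribosome footprints beyond that of RNA, was compared between rapamycin and DMSO in mouse medulloblastoma cells of the GTML line. All libraries came from a single such line, in all groups, which overexpresses human MYCN. In the mouse model of that name the transgene is switched on through the Glt1 promoter, which directs it to hindbrain progenitors. Rapamycin at 5 nM or DMSO was given for 3 h, with 3 replicates each, and each lysate gave a library of ribosome footprints and one of total RNA. These 12 of the 18 libraries of the study were used, and 10780 of 15319 features had enough reads in both assays to be tested. A feature is a gene or, where no symbol was given, a single transcript. Both are counted as genes below. The other 6 libraries came from cells given 50 nM Rapalink-1 for 3 h and serve only to show where rapamycin differs. Culture medium held EGF and bFGF in all groups. The labels do not say that replicates came from separate cultures, so p-values measure only the spread between these samples.

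The kinase complex mTORC1 sets the rate of protein synthesis through the S6 kinases, the eIF4E-binding proteins and the RNA-binding protein LARP1. Messenger RNAs that begin with a cytosine and a run of pyrimidines, the 5′ terminal oligopyrimidine (TOP) mRNAs, encode the ribosomal proteins and many translation factors and are the class whose translation follows mTORC1 most closely. Rapamycin binds mTORC1 away from the active site and is known to block phosphorylation of the S6 kinases more fully than that of the eIF4E-binding proteins. Rapalink-1 links rapamycin to an inhibitor of the ATP site of the kinase.

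The start sites of 8 ribosomal protein genes and Eef1a1 are shown because the tract is the feature by which the class is known. The ribosomal protein genes are drawn from those whose reference start opens with a C and a run of pyrimidines. In Eef1a1 the marked run begins 1 base before the reference start. The 8 were picked after their values were seen. By this choice 4 lie among those that fell in efficiency and 4 among those that did not pass the test. Each line gives 30 bases from 10 before the annotated start onward, 5′ to 3′, from RefSeq (GRCm38.p6). Capitals mark a C and the unbroken run of C and T that follows it, and C or T just before them is not marked. Rps21 has 2 annotated starts, of which 1 is shown. A reference start may not be the first base of the mRNA, and this was not tested.
Rps6 (chr4:86857348-86857377, minus strand): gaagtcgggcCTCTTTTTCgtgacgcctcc
Rps10 (chr17:27635225-27635254, minus strand): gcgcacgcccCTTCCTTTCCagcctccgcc
Rps27 (chr3:90213629-90213658, minus strand): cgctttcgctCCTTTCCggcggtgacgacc
Rack1 (chr11:48800350-48800379, plus strand): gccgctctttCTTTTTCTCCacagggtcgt
Rps15a (chr7:118116128-118116157, minus strand): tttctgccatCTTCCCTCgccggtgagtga
Rps21 (chr2:180257369-180257398, plus strand): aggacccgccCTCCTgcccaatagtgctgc
Fau (chr19:6057937-6057966, plus strand): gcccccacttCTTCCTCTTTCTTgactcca
Rpl38 (chr11:114668570-114668599, plus strand): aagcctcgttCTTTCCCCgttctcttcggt
Eef1a1 (chr9:78481705-78481734, minus strand): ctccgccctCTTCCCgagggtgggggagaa
Efficiency fell in rapamycin-treated cells for Rps6 (log2 change -0.60), Rps10 (-0.55), Rps27 (-0.51), Rack1 (-0.41) and Eef1a1 (-0.75), and it was -0.18 for Rps15a, -0.07 for Rps21, 0.02 for Fau and 0.05 for Rpl38, none of which passed the test. The even split of these 8 was set by the choice; of all 79 ribosomal protein genes tested, 61 fell. Of the 27025 genes in the reference table, 4429 (16.4%) hold a C followed by at least 4 pyrimidines that begins within 4 bases of the start, searched on the coding strand only. Of the 59 ribosomal protein genes with an entry, 28 (47.5%) hold it. Among genes with an entry, 17.4% of those called lower, 17.8% of those called higher and 17.5% of all tested hold it. Only 76.2% of the genes called lower, 72.7% of all genes tested and 74.7% of the ribosomal protein genes have an entry. A difference between these shares was not tested, and no conclusion is drawn from them.

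Translational efficiency passed the test for 1606 of 10780 genes (14.9%), with 632 higher (5.86%) and 974 lower (9.04%) in rapamycin-treated cells than in DMSO cells (edgeR quasi-likelihood F test of the interaction of assay and treatment, Benjamini-Hochberg adjusted p under 0.05). No spike-in is recorded, so a value tells how a gene stood among all genes of its library, and the median over all genes was 0.00. In bulk lysates fewer cells expressing a gene and less of its RNA per cell cannot be told apart. Scaled to library totals instead of TMM factors, the split was 814 higher and 760 lower. The number higher was 366 without rapamycin replicate 1, 400 without rapamycin replicate 2 and 383 without DMSO replicate 1, and the number lower was 636 without DMSO replicate 1. The changes were small: 22 of the higher and 59 of the lower genes had a log2 change of at least 1, and 272 and 478 had one of at least 0.5. The replicate efficiencies of both groups did not overlap for 3375 genes (31.3%). Values below are log2 changes, rapamycin minus DMSO, ± standard error, and levels are CPM, reads scaled to a common library size by TMM, in the order of replicates 1, 2 and 3.

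Efficiency changes lay in footprints for some genes and in RNA for others. With each assay tested by itself, whatever the other did, footprints were called for 1010 genes higher (9.37%) and 999 lower (9.27%). RNA was called for 1388 higher (12.9%) and 950 lower (8.81%). Under library totals footprints were called for 1381 higher and 623 lower. Of the 974 genes lower in efficiency, 272 had lower footprints without higher RNA, 528 had higher RNA without lower footprints, 113 had both and 61 had neither. Their median change was -0.17 in footprints and 0.32 in RNA. Of the 632 genes higher in efficiency, 288 had higher footprints without lower RNA, 212 had lower RNA without higher footprints, 61 had both and 71 had neither. Their median change was 0.26 in footprints and -0.21 in RNA.

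**Figure D1:**
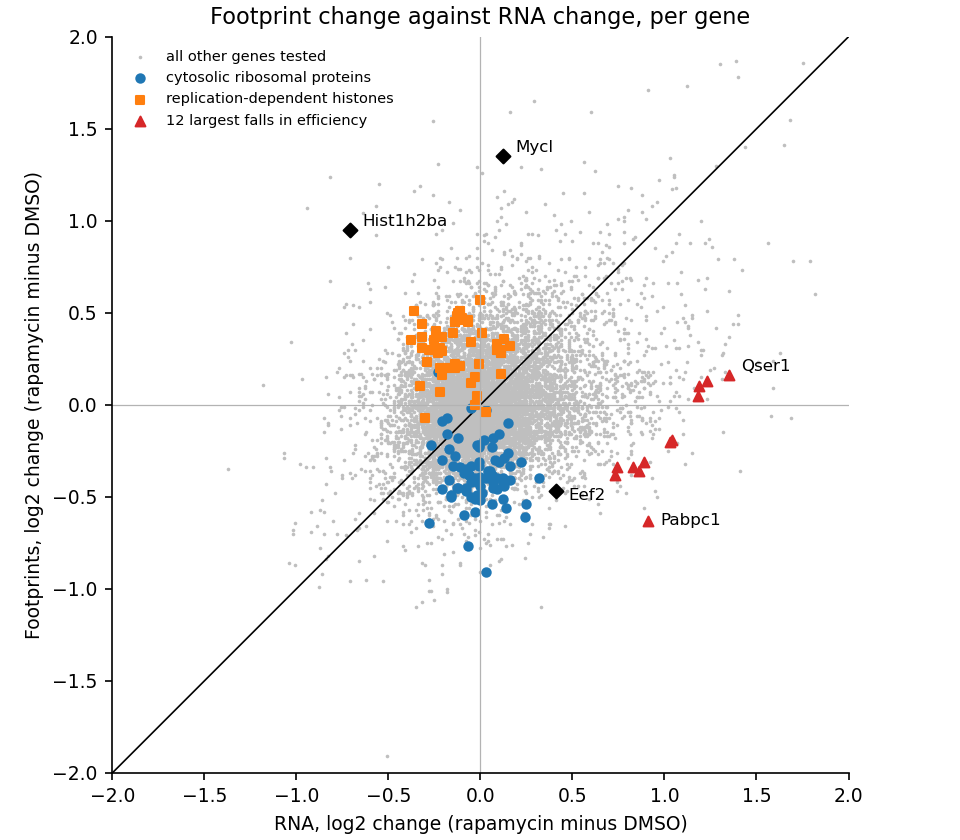
Log2 change of footprints (vertical axis) against that of RNA (horizontal axis), rapamycin minus DMSO, for 10773 genes, with 7 more outside the axes. The diagonal line marks equal change, that is no change in efficiency. Ribosomal protein genes lie mostly below it through lower footprints (median -0.40), histone genes mostly above it (median 0.31), and the 12 largest falls in efficiency lie to the right, with higher RNA in all 12.

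The ribosome itself was the group with the most members lower. Of 79 cytosolic ribosomal protein genes tested, 61 (77.2%) fell in efficiency and 0 rose, against 9.04% lower among all genes tested, and the median was -0.38. The fall lay in footprints, where 71 of 79 were lower (median -0.40), while RNA was lower for 11 and higher for 7 (median -0.01). With 1 member that was not tested counted in, the 80 genes of the list took 7.33 ± 0.09% of footprint reads in rapamycin-treated cells. They took 9.25 ± 0.29% in DMSO cells (SD, n = 3 each), and the groups did not overlap. They took 11.7 ± 0.16% of RNA reads in rapamycin-treated cells and 11.5 ± 0.093% in DMSO cells. The members lower in efficiency had a median change of -0.41 in footprints and 0.01 in RNA.

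Within the ribosome the change ran from -0.94 for Rpl17 to 0.41 for Rps2, which was not called here but was called higher with no count filter and with the lysate as a block. Rps15a (-0.18) was called lower with all 18 libraries in one fit and with the trend on span removed. Rpl17, a protein of the large subunit, had 176, 161 and 183 CPM of footprints in rapamycin-treated cells, against 311, 318 and 345 CPM in DMSO cells. Its RNA overlapped between the groups, at 413, 419 and 420 CPM in rapamycin-treated cells and 397, 395 and 431 CPM in DMSO cells. Efficiency of Rpl17 changed by -0.94 ± 0.082 (adjusted p = 1.9e-11, edgeR). Rps3a1, a protein of the small subunit, had 2452, 2581 and 2676 CPM of footprints in rapamycin-treated cells, against 3934, 3976 and 3888 CPM in DMSO cells. Its RNA moved the other way, with 5304, 5330 and 5210 CPM in rapamycin-treated cells and 4140, 4978 and 4252 CPM in DMSO cells. Neither assay overlapped between the groups, and efficiency changed by -0.86 ± 0.075 (adjusted p = 1.9e-11, edgeR). Rpl36a changed by -0.79 ± 0.075 and Rps4x by -0.70 ± 0.069. At the other end, 18 members were not called, among them Rpl7a (0.03), Rplp1 (0.11) and Rpl27 (0.12), which were picked here after their values were seen. Counts of ribosomal protein genes may hold reads from their many processed copies in the genome.

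Translation factors and other mRNAs known to carry the tract moved less evenly. Of 31 tested, 14 fell in efficiency (45.2%, against 9.04% of all genes) and 23 had lower footprints (74.2%, against 9.27%), with a median of -0.24 in efficiency. The 1 that rose was Slc25a5 (0.25), the adenine nucleotide carrier of the inner mitochondrial membrane, and its adjusted p was between 0.056 and 0.34 without rapamycin replicate 1 or 3 or DMSO replicate 1, or with the trend on span described below removed (edgeR). Eef2, the factor that translocates the ribosome, had 3016, 2985 and 2909 CPM of footprints in rapamycin-treated cells, against 3958, 4279 and 4099 CPM in DMSO cells. Its RNA was 3822, 3832 and 3894 CPM in rapamycin-treated cells, against 2860, 3016 and 2795 CPM in DMSO cells. Footprints were thus lower and RNA higher in every rapamycin library, and efficiency changed by -0.88 ± 0.067 (adjusted p = 8.4e-13, edgeR). Eef1a1, which brings aminoacyl-tRNA to the ribosome, had 10648, 10629 and 10745 CPM of footprints in rapamycin-treated cells, against 16363, 16300 and 16207 CPM in DMSO cells. Its efficiency changed by -0.75 ± 0.061 (adjusted p = 4.2e-12, edgeR), and that of its nucleotide exchange factor Eef1b2 by -0.85 ± 0.072. No tract was found within 4 bases of the reference starts of Eef2, Eef1b2, Tpt1, Rps3a1, Rpl36a and Rps4x, which also fell. Of the 24 members of this list with an entry, 9 (37.5%) held one. A reference start may not be the first base of the mRNA, so a tract not found here tells nothing of the mRNA itself.

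Tpt1, which encodes the translationally controlled tumour protein, had 1097, 1198 and 1138 CPM of footprints in rapamycin-treated cells, against 1912, 1930 and 1921 CPM in DMSO cells. Its efficiency changed by -1.01 ± 0.077 (adjusted p = 8.4e-13, edgeR). Pabpc1, which binds poly(A) tails, had the largest fall of all genes named here, at -1.55 ± 0.25 (adjusted p = 0.0044, edgeR). Its footprints were 580, 561 and 580 CPM in rapamycin-treated cells, against 936, 876 and 856 CPM in DMSO cells. Its RNA was 552, 509 and 568 CPM in rapamycin-treated cells, against 232, 241 and 395 CPM in DMSO cells, where replicate 3 stood apart. Without that RNA library the change was -1.83. The initiation factors Eif3f (-0.93), Eif4b (-0.71) and Eif3h (-0.52) also fell, whereas Eif3k (0.03), Eif3l (0.01) and Npm1 (-0.12) were not called.

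**Figure D2:**
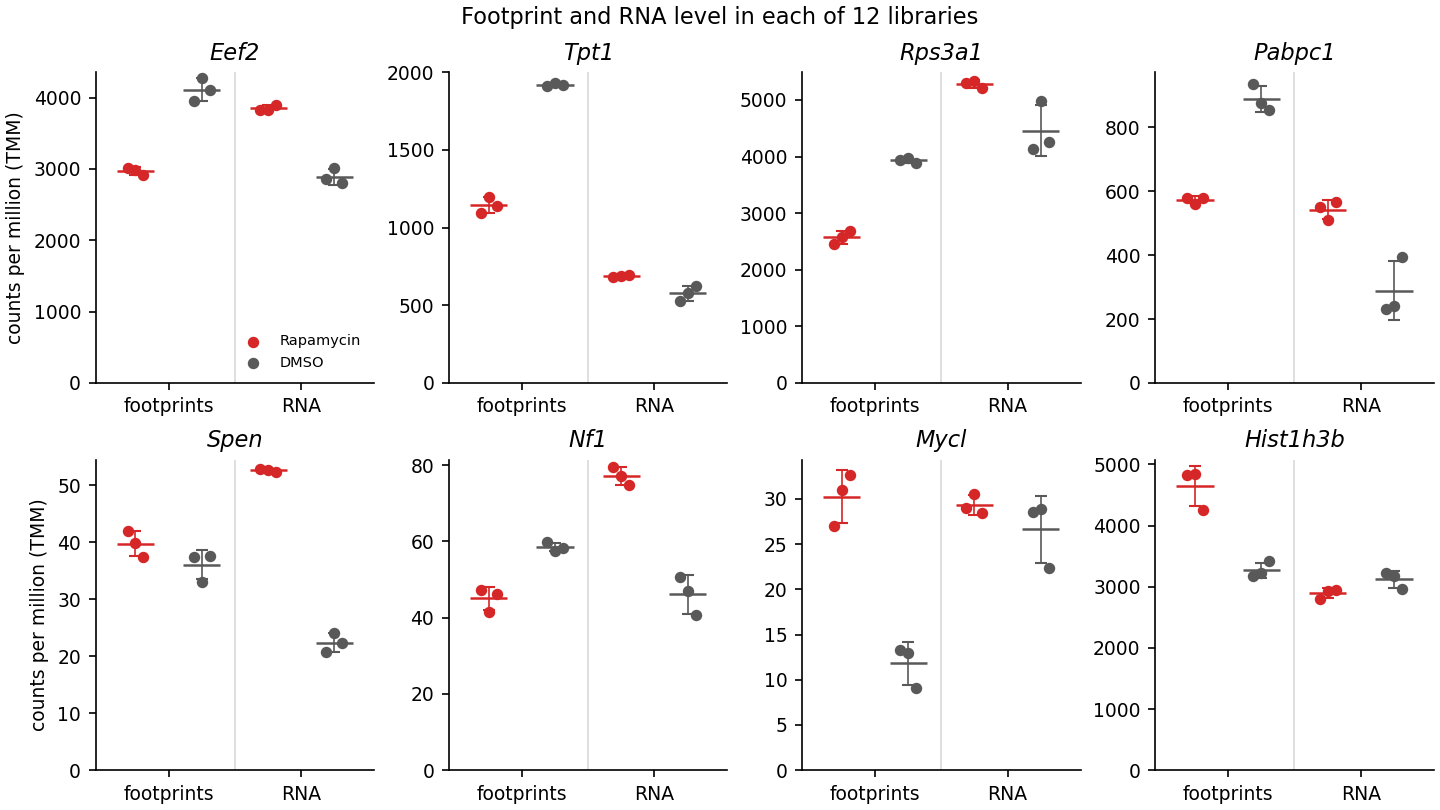
CPM (linear axis from 0) of footprints and RNA for 8 genes in each of the 12 libraries, rapamycin in red and DMSO in grey, with the mean and SD of 3 libraries. Eef2, Tpt1, Rps3a1 and Pabpc1 have lower footprints in all 3 rapamycin libraries, Spen has higher RNA with overlapping footprints, and Mycl has higher footprints with overlapping RNA.

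Of 25 genes of eIF4F, the mTOR complexes and the S6 kinase branch, 9 fell (36.0%, against 9.04% of all genes) and 1 rose (median -0.15). For 7 of the 9 RNA was higher, while footprints were lower for 1. Eif4ebp2, a repressor of eIF4E, changed by -1.11 ± 0.26 at a low RNA level of 5.81 ± 0.567 CPM in rapamycin-treated cells and 2.86 ± 1.31 CPM in DMSO cells (SD, n = 3 each). Eif4g3, a scaffold of eIF4F, changed by -0.47 ± 0.10, Rptor, the mTORC1 subunit raptor, by -0.41 ± 0.12, and Larp1 by -0.28 ± 0.087. Rps6kb2, one of the S6 kinases, was the member that rose (0.63). The call was lost for Larp1 without rapamycin replicate 1 or 2 or DMSO replicate 1 or 2 and under library totals, for Rptor without rapamycin replicate 1 or 3 or DMSO replicate 2, for Rps6kb2 without rapamycin replicate 1 or 3 or DMSO replicate 1 or 2, and for Eif4ebp2 without DMSO replicate 1 (-0.71). All but Eif4ebp2 of these, and Eif4g3, also lost it with the trend on span removed, and the adjusted p-values of lost calls ran from 0.06 to 0.32 (edgeR). Mtor (-0.23), Eif4ebp1 (0.16) and Rps6kb1 (0.19) did not pass the test. The number lower in this list was 3 without rapamycin replicate 1 and 4 without DMSO replicate 1, and it was 5 once a trend on gene span was removed.

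Of 22 genes for the initiation factors eIF1, 2, 3, 5 and 6, 5 fell (22.7%, against 9.04% of all genes) and 2 rose (9.09%, against 5.86%), with a median of -0.05. The number that fell was 3 without rapamycin replicate 2 or DMSO replicate 1 and 8 without DMSO replicate 3. Eif5b, the GTPase that joins the ribosomal subunits, changed by -0.98 ± 0.095 (adjusted p = 2.9e-10, edgeR). Its RNA was 94.0, 89.2 and 86.2 CPM in rapamycin-treated cells, against 58.3, 50.5 and 61.7 CPM in DMSO cells, with no overlap. Its footprints were 246, 241 and 270 CPM in rapamycin-treated cells, against 331, 305 and 308 CPM in DMSO cells. The eIF3 subunits Eif3a (-0.53) and Eif3b (-0.58) fell, and Eif6, which keeps the subunits apart, rose (0.37), with an adjusted p of 0.073 without rapamycin replicate 2 (edgeR). Of 34 ribosome biogenesis genes, 7 fell (20.6%, against 9.04% of all genes) and 2 rose (5.88%, against 5.86%), with a median of -0.12, and 19 had lower footprints (55.9%, against 9.27%). The 4 with the smallest p were the helicases Ddx21 (-0.47) and Ddx18 (-0.35), the processing factor Utp20 (-0.50) and Mybbp1a (-0.35), and all 4 fell. The list had 4 members lower without rapamycin replicate 3 or DMSO replicate 1.

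Of 12 mRNAs described as sensitive to eIF4E, 2 fell (16.7%, against 9.04% of all genes) and 1 rose (8.33%, against 5.86%), with a median of -0.08. Odc1, the first enzyme of polyamine synthesis, had 390, 397 and 394 CPM of footprints in rapamycin-treated cells, against 419, 412 and 409 CPM in DMSO cells. Its efficiency changed by -0.24 ± 0.071 (adjusted p = 0.018, edgeR), a call lost under library totals and on leaving out 5 of the 6 replicates in turn. Bcl2l1, an inhibitor of apoptosis, changed by -0.48 and Cdk1, the mitotic kinase, by 0.23. The call of Cdk1 (adjusted p = 0.049, edgeR) was lost in 9 of the alternatives, among them each replicate left out other than DMSO replicate 3, with an adjusted p of up to 0.23. That of Bcl2l1 was lost without rapamycin replicate 1 (0.092) or DMSO replicate 1 (0.15) and with the trend on span removed (0.094), these values being adjusted p from edgeR. Ccnd1 (-0.07), Mcl1 (0.18), Birc5 (-0.21) and Mycn (0.10 ± 0.073) did not pass the test, and reads of the human transgene may have been counted in the row of mouse Mycn. No row carried the name Myc.

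The genes with the 12 largest falls, taken from those called at a mean level of at least 4 on the log2 CPM scale with no overlap of replicates, went with higher RNA. It was called higher for all 12 (median 0.97), while footprints were called lower for 6 (median -0.25). As efficiency change is footprint change minus RNA change, choosing the lowest values itself favours genes with higher RNA or lower footprints. Besides Pabpc1 they included Polr2a, the catalytic subunit of RNA polymerase II, Srrm2, a scaffold of splicing bodies, the corepressor Spen, Baz2a of a nucleolar remodelling complex, the Ras regulator Nf1, the vesicle coat gene Sec24b, Ankrd52, Ylpm1, Qser1 and Gm340. Spen RNA was 52.9, 52.7 and 52.3 CPM in rapamycin-treated cells, against 20.7, 24.1 and 22.4 CPM in DMSO cells. Its footprints were 42.0, 39.9 and 37.5 CPM in rapamycin-treated cells and 37.4, 33.1 and 37.6 CPM in DMSO cells, and these overlap. Spen efficiency changed by -1.10 ± 0.12 (adjusted p = 1.8e-08, edgeR).

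Nf1 differed in both assays. Its RNA was 79.5, 77.2 and 74.7 CPM in rapamycin-treated cells, against 50.7, 47.0 and 40.6 CPM in DMSO cells. Its footprints were 47.3, 41.6 and 46.2 CPM in rapamycin-treated cells, against 59.8, 57.6 and 58.2 CPM in DMSO cells, and efficiency changed by -1.11 ± 0.11 (adjusted p = 8.2e-10, edgeR). Qser1 had the largest RNA change of the 12, at 1.35, with footprints at 0.16. Polr2a changed by -1.23 ± 0.25 (adjusted p = 0.012, edgeR), and its adjusted p was between 0.051 and 0.074 on leaving out rapamycin replicate 2 or 3 or DMSO replicate 1 or 2. Over all 59 genes lower by at least 1, likewise chosen by efficiency, RNA was called higher for 54 and footprints lower for 14.

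The efficiency change followed the genomic span of the gene, introns included, which is not the length of the mRNA. A span was found for 9687 of the genes tested (89.9%). The median span was 59.8 kb for genes lower in efficiency, 8.54 kb for genes higher in efficiency and 24.5 kb for all with a span. In the 1938 genes of the longest group, from 69.3 to 2390 kb, 21.3% were lower and 1.65% higher in efficiency, with a median of -0.16. In the 1938 genes of the shortest group, from 0.204 to 8.58 kb, 5.88% were lower and 15.7% higher, with a median of 0.14. Median RNA change ran from -0.06 in the shortest to 0.12 in the longest group and that of footprints from 0.08 to -0.04. In the longest group the median RNA level, relative to the mean of its gene over the RNA libraries, was 0.06 to 0.07 in the 3 rapamycin libraries and -0.08 to -0.05 in the 3 DMSO libraries. With a smooth trend on span removed, 512 genes were higher and 786 lower, of which 405 and 681 were among the calls above, and 68 ribosomal protein genes were lower.

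**Figure D3:**
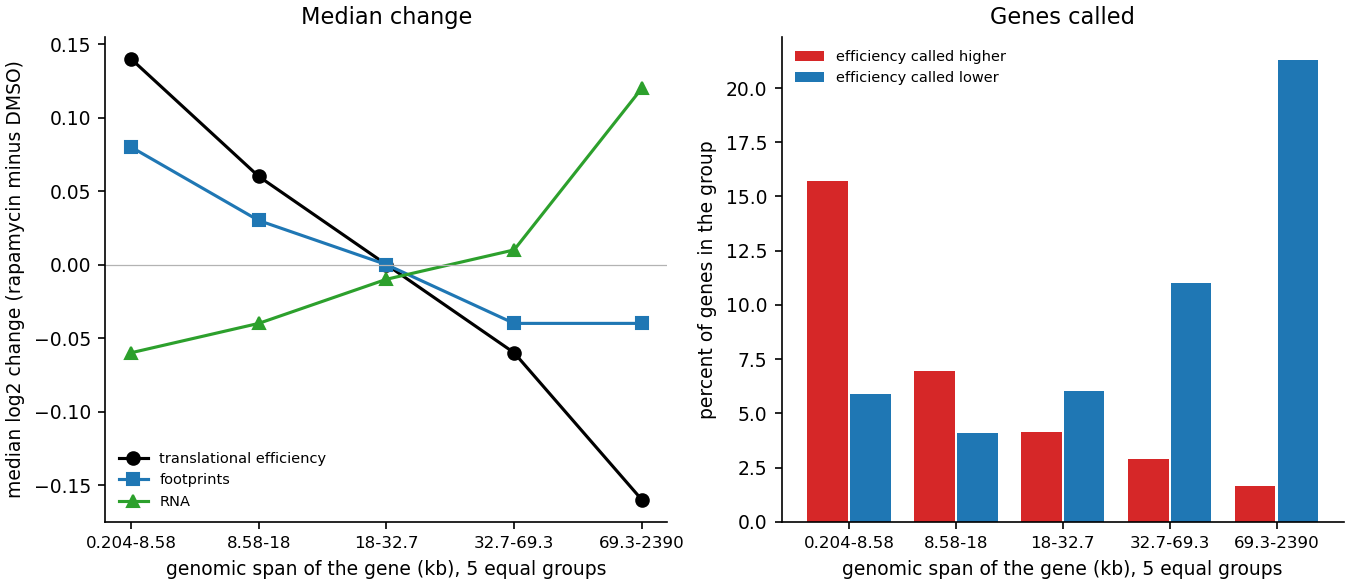
Genes tested, in 5 groups of equal number by genomic span in kb. The left panel gives the median log2 change (rapamycin minus DMSO) of efficiency, footprints and RNA, and the right panel the percent of genes called higher or lower in efficiency. Efficiency falls from 0.14 in the shortest group to -0.16 in the longest, and the percent called lower is highest, at 21.3%, in the longest.

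Among genes that rose in efficiency, replication-dependent histones were the group with the most members. Their mRNAs lack introns and end in a stem-loop in place of a poly(A) tail. Of 58 tested, 37 rose and 0 fell, against 5.86% higher among all genes, and the median was 0.47 (footprints 0.31, RNA -0.12). All 12 genes of H3 and all 5 of H1 rose, with 9 of 17 for H2A, 8 of 11 for H2B and 3 of 13 for H4. Histone genes took between 11.2 and 12.8% of footprint reads in the 3 rapamycin libraries, against 8.60, 9.36 and 9.52% in the DMSO libraries, with no overlap. They took 9.35, 9.09 and 9.42% of RNA reads in rapamycin-treated cells and 9.45, 10.2 and 9.09% in DMSO cells, which overlap. Hist1h3b had 4826, 4841 and 4263 CPM of footprints in rapamycin-treated cells, against 3184, 3218 and 3414 CPM in DMSO cells. Its RNA was 2799, 2931 and 2950 CPM in rapamycin-treated cells and 3221, 3183 and 2962 CPM in DMSO cells, and efficiency changed by 0.62 ± 0.073 (adjusted p = 4.6e-08, edgeR). Histone genes are near-identical copies, so reads may be shared between rows and the members are not separate observations. As histone genes are also among the shortest, 24 were higher (median 0.24) once the trend on span was removed.

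Mycl, a member of the MYC family of transcription factors, rose through its footprints. It had 27.0, 31.0 and 32.7 CPM of footprints in rapamycin-treated cells, against 13.3, 13.0 and 9.10 CPM in DMSO cells. Its RNA was 29.0, 30.5 and 28.4 CPM in rapamycin-treated cells and 28.6, 28.9 and 22.4 CPM in DMSO cells, which overlap. Efficiency of Mycl changed by 1.23 ± 0.17 (adjusted p = 6.3e-07, edgeR). Hist1h2ba, an H2B gene, had the largest rise of the 12 named, at 1.65 ± 0.19 (adjusted p = 0.00048, edgeR), with footprints at 0.95 and RNA at -0.71. Jund, a partner in the AP-1 transcription factor, rose by 0.91 ± 0.098, and Insm1, a zinc finger factor of neuroendocrine and neuronal precursors, by 0.83 ± 0.10. Emc6, a subunit of the membrane protein insertion complex of the endoplasmic reticulum, rose by 1.03 ± 0.14. The remaining members of the 12 were Gm12728 (1.54), Gpr27 (1.00), Eid2 (0.97), Nudt19 (0.89), Hist1h2ac (0.87), Hist2h2be (0.82), whose call was lost with the trend on span removed, and a transcript without a symbol. Footprints were called higher for all 12 and RNA lower for 7, in a set likewise chosen by efficiency.

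Of 74 nuclear genes of oxidative phosphorylation tested, 23 rose (31.1%, against 5.86% of all genes) and 2 fell (2.70%, against 9.04%), with a median of 0.16. Cox8a, a subunit of cytochrome c oxidase, had 180, 208 and 189 CPM of footprints in rapamycin-treated cells, against 139, 150 and 156 CPM in DMSO cells, and 144, 150 and 140 CPM of RNA in rapamycin-treated cells, against 172, 164 and 182 CPM in DMSO cells. Its efficiency changed by 0.63 ± 0.09 (adjusted p = 1.5e-06, edgeR), and that of Sdhd, a membrane anchor of succinate dehydrogenase, by 0.59 ± 0.088. The 2 that fell were Uqcrh (-0.50), whose adjusted p was 0.059 without DMSO replicate 3 (edgeR), and Ndufab1 (-0.43). Leaving out any 1 replicate other than DMSO replicate 3 gave between 12 and 15 members higher, and removal of the trend on span gave 11. Of 77 mitochondrial ribosomal proteins, 10 rose (13.0%, against 5.86% of all genes) and 0 fell (median 0.09). Mrps24 (0.57) and Mrpl11 (0.48) were among them. That count was between 3 and 6 without rapamycin replicate 1 or 3 or DMSO replicate 1 or 2, and 2 rose and 1 fell with the trend on span removed.

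The 13 genes of mitochondrial DNA, translated by the ribosomes of that organelle, had a median of -0.42, and 0 were called in either direction by edgeR or by DESeq2, with 0 at an unadjusted p under 0.05. Their spread lay in DMSO: mt-Cytb had 558, 587 and 539 CPM of footprints in rapamycin-treated cells, and 514, 895 and 1419 CPM in DMSO cells. The RNA of mt-Cytb was 386, 408 and 351 CPM in rapamycin-treated cells and 294, 219 and 619 CPM in DMSO cells.

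**Figure D4:**
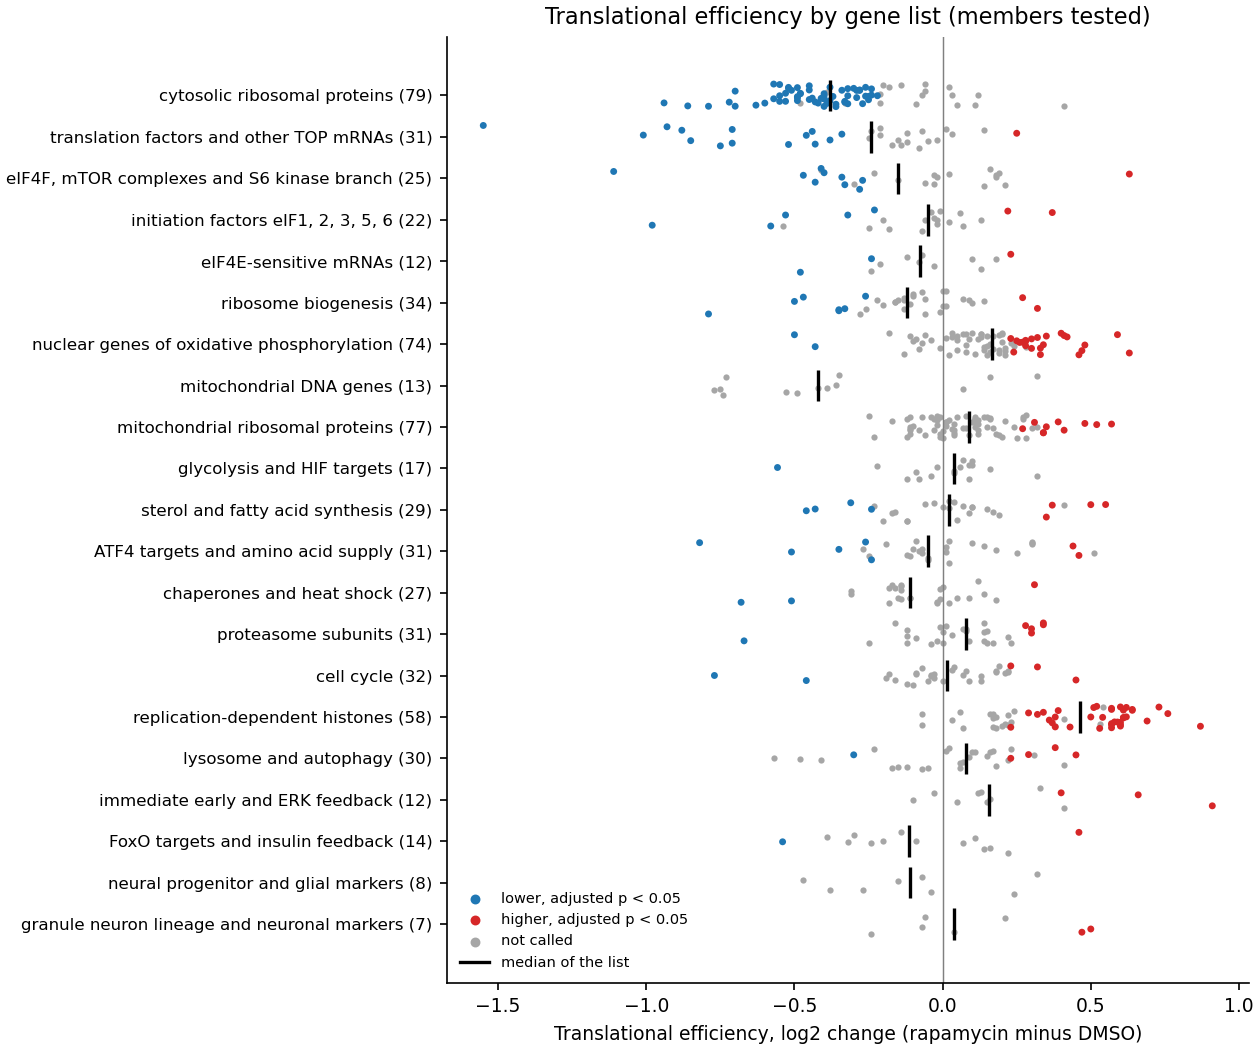
Log2 change in translational efficiency (rapamycin minus DMSO) of each member of 21 gene lists with at least 7 members tested, whose number is given in brackets. Each point is a gene, blue or red where it was called lower or higher and grey where it was not, and the black line is the median. Ribosomal proteins lie lowest as a group with many calls (61 of 79 lower) and histones highest (37 of 58 higher), while most other medians lie near 0.

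Over all genes 5.86% rose and 9.04% fell in efficiency, and the shares of metabolic and stress lists are read against these. For sterol and fatty acid synthesis 4 of 29 rose and 4 fell (13.8% each, median 0.02), while footprints were lower for 18 (62.1%, against 9.27% of all genes) and RNA for 17 (58.6%, against 8.81%). Msmo1, an enzyme of cholesterol synthesis, had footprints at -0.64 and RNA at -1.01, so that its efficiency was higher (0.37 ± 0.093). Insig1, which retains the sterol sensor in the endoplasmic reticulum, rose by 0.50 through lower RNA (-0.56), and Acaca, the carboxylase that commits carbon to fatty acids, fell by 0.46. For ATF4 targets and amino acid supply 2 of 31 rose (6.45%) and 5 fell (16.1%), though only 2 or 3 fell under library totals or on leaving out any 1 replicate other than DMSO replicate 3, with Ppp1r15a, a phosphatase subunit acting on eIF2, at -0.82 and Psph, the last enzyme of serine synthesis, at 0.46. Atf4 itself had footprints at -0.71 and RNA at -0.73, and its efficiency change of 0.02 did not pass the test. For glycolysis 1 of 17 fell (5.88%), Hk2, a hexokinase (-0.56). For chaperones 1 of 27 rose (3.70%), Hspa5 (0.31), and 2 fell (7.41%), Hsph1 (-0.68) and Hsp90ab1 (-0.51). For the proteasome 5 of 31 rose (16.1%), or 3 without rapamycin replicate 1 or 3 or DMSO replicate 1, and 1 fell (3.23%), Psmd11 (-0.67). For lysosome and autophagy 4 of 30 rose (13.3%) and 1 fell (3.33%), Atp6v1a (-0.30). Acaca, Hspa5 and Atp6v1a lost the call with the trend on span removed, and Atp6v1a also without rapamycin replicate 1 (adjusted p = 0.059, edgeR).

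The cell cycle list had 3 of 32 members higher (9.38%) and 2 lower (6.25%), near the 5.86% and 9.04% of all genes, and a median of 0.02. Mki67, which coats mitotic chromosomes, had 423, 391 and 376 CPM of RNA in rapamycin-treated cells, against 249, 226 and 268 CPM in DMSO cells. Its footprints were 374, 335 and 324 CPM in rapamycin-treated cells and 390, 379 and 335 CPM in DMSO cells, and efficiency changed by -0.77 ± 0.093 (adjusted p = 1.1e-07, edgeR). Cdk6 fell by 0.46, and E2f1 (0.45) and Cdc20 (0.32) rose. The call was lost for Cdk6 without rapamycin replicate 1 or 3, DMSO replicate 2 or the RNA library of DMSO replicate 3, for E2f1 without rapamycin replicate 1 or 2 or DMSO replicate 2, and for Cdk6 and Cdc20 with the trend on span removed (adjusted p of lost calls 0.058 to 0.23, edgeR). Of 12 immediate early and ERK feedback genes 3 rose (25.0%, against 5.86% of all genes) and 0 fell, namely Jund and the phosphatases Dusp5 (0.66) and Dusp4 (0.40), the last with an adjusted p of 0.051 to 0.096 without rapamycin replicate 1 or 2 or DMSO replicate 1 (edgeR).

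Some genes changed the same way in both assays and were not called in efficiency. Pdcd4, an inhibitor of the helicase eIF4A, had 120, 130 and 134 CPM of footprints in rapamycin-treated cells, against 68.8, 71.8 and 61.1 CPM in DMSO cells. Its RNA was 77.3, 82.8 and 85.6 CPM in rapamycin-treated cells, against 36.2, 41.2 and 38.8 CPM in DMSO cells, and its efficiency change of -0.15 ± 0.10 did not pass the test (adjusted p = 0.37, edgeR). Of 14 FoxO targets and insulin feedback genes, 11 had higher RNA (78.6%, against 12.9% of all genes, median 0.59) and 10 higher footprints (71.4%, against 9.37%, median 0.57). In efficiency 1 rose and 1 fell (7.14% each), near the shares of all genes. Foxo3 rose (0.46) and Igf1r, the receptor of insulin-like growth factor 1, fell (-0.54). The call of Foxo3 was lost without rapamycin replicate 1 or 2 or DMSO replicate 1 or 2 (adjusted p 0.062 to 0.21, edgeR), and that of Igf1r without rapamycin replicate 1 or 2 or DMSO replicate 2 and with the trend on span removed (0.064 to 0.17).

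Of 8 neural progenitor and glial markers tested, 0 were called by edgeR or by DESeq2 and 1 had an unadjusted p under 0.05 (edgeR). Nes, Vim, Prom1 and Slc1a2, the mouse gene of Glt1, were among the 8. Of 7 granule lineage and neuronal markers, Zic2 (0.50) and Zic1 (0.47) rose. Over all genes 14.9% were called in either direction, and nothing is read from so few markers. The call of Zic1 was lost without rapamycin replicate 1 or 3 or any 1 DMSO replicate, with no filter and with the trend on span removed (adjusted p 0.052 to 0.16, edgeR). Few markers of other cells had a named row: 1 of 11 oligodendrocyte, 2 of 14 microglia and blood and 1 of 14 vascular and fibroblast markers were tested. Of these 0 were called by either program, with 0 at an unadjusted p under 0.05. Mean RNA in rapamycin-treated and DMSO cells was 87.0 and 96.0 CPM for Itgam, 32.3 and 34.7 for Acta2, 24.0 and 27.9 for Hbb-bs and 11.4 and 8.91 for Cnp. The other markers had no named row and were not analysed here, so their absence tells nothing of the cells present.

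Rapalink-1, at 50 nM against 5 nM for rapamycin, gave other values, and dose and compound cannot be told apart. The footprint columns of Rapalink-1 are marked RP-B and those of rapamycin RP, so this mark cannot be told apart from the compound either. In one fit of 18 libraries 5504 of 11009 genes (50.0%) differed in efficiency between the inhibitors, 2632 higher (23.9%) and 2872 lower (26.1%) with rapamycin than with Rapalink-1. Under library totals these were 1196 and 5186, as the median over all genes moved to -0.37, against -0.04 with TMM. Ribosomal protein genes had a median of -0.38 with rapamycin and -2.29 with Rapalink-1, both relative to the same DMSO libraries. The difference was positive and called for all 79, also under library totals (median 1.88, and 1.56 under library totals). Eef2 changed by -0.88 with rapamycin and -4.23 with Rapalink-1, a difference of 3.35 ± 0.059 (adjusted p = 9.4e-45, edgeR), and Eef1a1 by -0.75 and -4.13, a difference of 3.38 ± 0.053. Odc1 changed by -0.24 with rapamycin and -2.59 with Rapalink-1, and Eif4ebp1 by 0.16 and -1.29.

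Other genes had the lower efficiency with rapamycin. Of the 974 genes lower with rapamycin, 513 had a value above 0 with Rapalink-1 and 461 one below 0. Of the 632 genes higher with rapamycin, 325 were above 0 and 307 below. Above 0 were also 35 of the 59 lower by at least 1 and 10 of the 12 largest falls, which were chosen for their low rapamycin value. The share of all genes above 0 is not given here, so nothing is read from these counts. Spen changed by -1.10 with rapamycin and 0.71 with Rapalink-1, a difference of -1.81 ± 0.12 (adjusted p = 2.3e-18, edgeR). Mki67 changed by -0.77 and 0.68, and Eif5b by -0.98 and 0.33. Histone genes had a median of 0.47 with rapamycin and -0.49 with Rapalink-1, and 52 of 58 were higher with rapamycin. Nuclear genes of oxidative phosphorylation had medians of 0.16 and -0.35, with 61 of 74 higher with rapamycin. Under library totals these counts were 42 and 39. All 13 genes of mitochondrial DNA were lower with rapamycin (median difference -2.36). The difference was not called for Becn1 (-0.03 ± 0.096), Eif3a (-0.01 ± 0.068) or Mtor (0.04 ± 0.11).

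**Figure D5:**
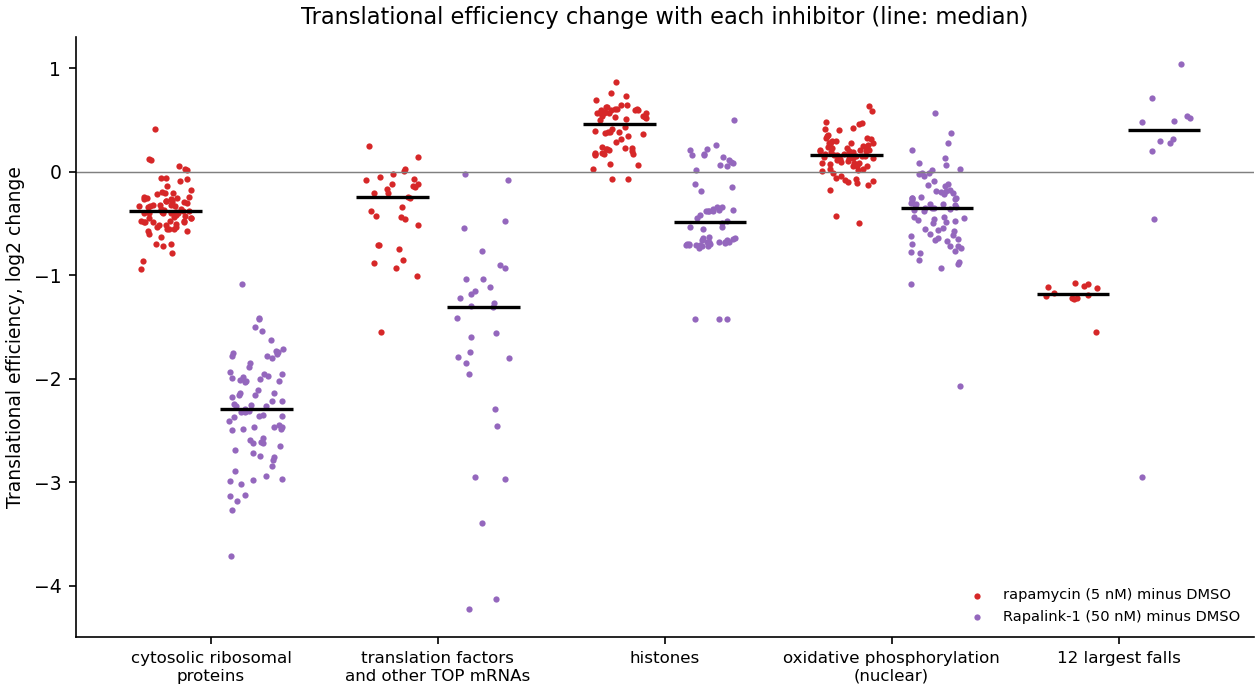
Log2 change in translational efficiency of each gene with rapamycin at 5 nM (red) and with Rapalink-1 at 50 nM (purple), each against the same DMSO libraries, with the median as a black line. Ribosomal proteins lie at a median of -0.38 with rapamycin and -2.29 with Rapalink-1, histones at 0.47 and -0.49, and the 12 largest falls with rapamycin lie mostly above 0 with Rapalink-1.

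The RNA libraries of these 12 held 6792337 to 12080960 reads and the footprint libraries 7696100 to 14156991, and the biological coefficient of variation of the fit was 6.59%. The RNA library of DMSO replicate 3 had the fewest reads, and without it 637 genes were higher and 1055 lower. Footprint columns are marked RP for rapamycin and RP-B for DMSO and Rapalink-1, with no explanation. This mark and treatment with rapamycin thus cannot be told apart. In the authors' deposited table of the same comparison 783 genes were called higher and 1151 lower of 9746 genes in both, and 609 and 936 of these were also called here, with 0 of opposite sign.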

How the data were processed

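Ribosome footprints and total RNA were sequenced from 12 libraries of rapamycin and DMSO cells. Total RNA was an aliquot of each lysate, and the ARTseq kit served for both assays, per the labels' protocols. The genome build is GRCm38, per the submitters' processing notes, while no source used here names the aligner, the counting program or the strand setting. Counts are whole-number reads per transcript without normalization, as deposited by the authors. In the authors' deposited table of translational efficiency, the signal column baseMean is a mean of normalized counts, log2FoldChange and lfcSE are log2 values, stat is a score, and pvalue and padj are p-values, per the file headers. Its log2 and p-value columns were used for the overlap of calls, and baseMean to take 1 transcript a gene.

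The 27382 transcript rows were reduced to 15319 features. The 9787 features with a symbol were merged by gene. The others are single transcripts without a symbol, of which 1 was kept where counts were equal, and they are not merged by gene. For the 62 genes whose transcripts had unequal counts, the transcript with the highest total stood for the gene. Features without a symbol held 1.89 to 2.19% of reads. Genes entered when they passed filterByExpr of edgeR (minimum count 10, minimum total 15) in each assay. Library sizes were scaled by TMM, and a means model of 4 groups was fitted with glmQLFit (robust) and tested with glmQLFTest. P-values were adjusted by Benjamini-Hochberg over all genes of a comparison, and the standard error is the size of the log2 change over the square root of F. Replicate efficiency is log2 CPM of footprints minus that of RNA of the same lysate, with a prior count of 2. The script was tested on simulated data. Intervals and errors cover the spread between libraries.

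Named genes were the 12 largest falls and rises (called, no overlap of replicates, mean of at least 4 on the log2 CPM scale), up to 4 members with the smallest p of each of 24 lists, and 17 genes of the mTOR pathway and its known targets. Members and lists were chosen with earlier results of these data known. Any other gene was named after its values were seen. One gene that the rule names is not reported here. Gene coordinates and start sites came from RefSeq, GRCm38.p6. Alternatives were DESeq2 and its size factors, library totals, TMM without ribosomal protein, TOP and mitochondrial genes, other count filters, all 18 libraries, blocks for replicate or lysate, and each replicate left out. Chosen after seeing the data were 1 count filter over both assays, removal of a trend on genomic span, and DMSO without its RNA replicate 3. The versions used were Python 3.11.15 with pandas 2.3.3 and matplotlib 3.10.9, and DESeq2 1.42.0, limma 3.58.1 and edgeR 4.0.16 under R 4.3.3.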

Additional observations from a re-analysis of the deposited data

How the results depend on the processing

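Without 1 replicate of rapamycin or DMSO in turn, the genes higher in efficiency numbered 366 to 660 and those lower 636 to 1094. Higher counts were lowest without rapamycin replicate 1 (366), rapamycin replicate 2 (400) and DMSO replicate 1 (383), and the lower count without DMSO replicate 1 (636). With the RNA library of DMSO replicate 3 alone left out also counted, footprints gave 658 to 1066 higher and 648 to 1085 lower, and RNA 584 to 948 lower. Footprints were lowest without rapamycin replicate 2 (658 higher, 648 lower), with 665 higher without DMSO replicate 1, and RNA without rapamycin replicate 1 or 3 (584 lower each), with 628 lower without DMSO replicate 1. Under library totals without TMM, 623 genes had lower footprints, and the difference to Rapalink-1 was called higher for 1196 and lower for 5186. The other settings run, DESeq2 among them, kept these counts over all genes within 1.5 times; counts of single lists that moved more stand in the report.

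With the replicate number as a block, 649 genes were higher and 1005 lower, and with the lysate as a block 684 and 1041. Deviations of same-numbered rapamycin and DMSO libraries correlated at 0.121, 0.122 and -0.17 in footprints and at -0.0916, -0.15 and -0.114 in RNA. Those of footprints and RNA of the same lysate correlated at 0.007, -0.0351 and 0.0356 in rapamycin-treated cells and at 0.159, 0.178 and 0.153 in DMSO cells. With 3 libraries a group these values cannot settle whether the numbers pair the treatments.

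Of 122 named genes 92 were called, 62 of them in every setting, and 30 lost the call in at least 1; none reversed. With the tract required at the exact first base, 15 of the 59 ribosomal protein genes with an entry (25.4%) held it. Among genes with an entry, 3.91% of those called lower, 2.20% of those called higher and 2.91% of all tested held it. The same lack of entries applies, and a difference was not tested. Values are relative, intervals rest on 3 libraries a group, and low-count genes such as Eif4ebp2 and Gpr27 have wide errors.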
